A study of Mus musculus with 14 samples.

Results

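The duodenal mucosa 3 h after the beginning of a low-fat (LF) meal was compared with the mucosa 1 h after its beginning. The mice ate ad libitum until they were killed, so time since the first food and length of feeding cannot be told apart. The comparison takes the 2 arrays titled LF3h and the 2 arrays titled LF1h of the 14 arrays in the series, with all 45037 probe sets other than the Affymetrix controls, of which one per gene represents 18193 genes. Both groups were male C57BL6 mice 12 wk old, kept on an LF diet and fasted for 12 h before the meal, which gave 10% of its calories as fat, 70% as carbohydrate and 20% as protein. The meal was timed so that all groups were killed in the same part of the morning, and the mucosa was scraped from the upper duodenum. RNA of 20 mice was pooled per group and run on 2 arrays, so the replicates are technical: every error and p-value below covers the arrays only, and the spread between mice was not measured. The remaining arrays are a fasting pool, an LF pool at 30 min and 3 pools given a high-fat (HF) meal at the same times.

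The duodenum is the first segment to receive stomach contents, bile and pancreatic juice, and its enterocytes take up the glucose, fructose, iron and lipid of a meal. In a fasted animal, glucagon, glucocorticoids and the transcription factors FOXO1, CREB1 and PPARα favour gluconeogenesis and the burning of fat, and insulin released by carbohydrate turns that program down. A scraping of the upper duodenum can also carry neighbouring tissue, namely pancreas, the Brunner glands under the mucosa and the stomach next to it.

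Values are log2 RMA values, in which a difference of 1 is a 2-fold difference. Array medians lay between 4.47 and 4.55, and paired arrays of each pool had correlations of 0.9958 to 0.9971. A signal gap between the 3′ and 5′ probes of a control transcript is a sign of RNA quality: for β-actin it was 0.398 and 0.397 on the LF3h arrays, the smallest of all pools, against 0.476 and 0.472 on the LF1h arrays. Its part in the results was not tested. Apoa1, the main apolipoprotein of enterocytes, and the goblet cell protein Zg16, both markers of the labelled tissue, were high and level. Apoa1 was at 14.39 at 3 h and 14.36 at 1 h, and Zg16 at 13.89 at 3 h and 13.92 at 1 h. Both lie near the top of the scale, where a change may be hidden, so their level values say little.

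More changed downward than upward. Probe sets that passed limma's test (Benjamini-Hochberg adjusted p below 0.05 over the whole array) and differed 2-fold or more are called modulated: 15 were higher (0.0333% of those tested) and 75 lower (0.167%) at 3 h than at 1 h. With no fold minimum 505 were higher and 557 lower. With 1 probe set per gene, 1.08% of all 18193 genes were higher and 1.71% lower at that p. These shares are to be set beside each count of list members below. Of the 90 modulated probe sets 78 name a single gene, 61 genes in all, 1 names several and 11 name none. Taking for each gene its brightest probe set, by mean over the series, left 53 modulated genes, 9 higher and 44 lower. Of these, 24 are on the lists of pancreas, stomach and Brunner gland genes. Without the probe sets that carry a listed symbol, 15 higher and 38 lower probe sets remained. Probe sets with no gene name and genes on no list stayed in, so the 38 are not shown to lie outside these tissues. The number higher rested in part on 1 array: without LF1h replicate 1 it was 35.

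**Figure D1:**
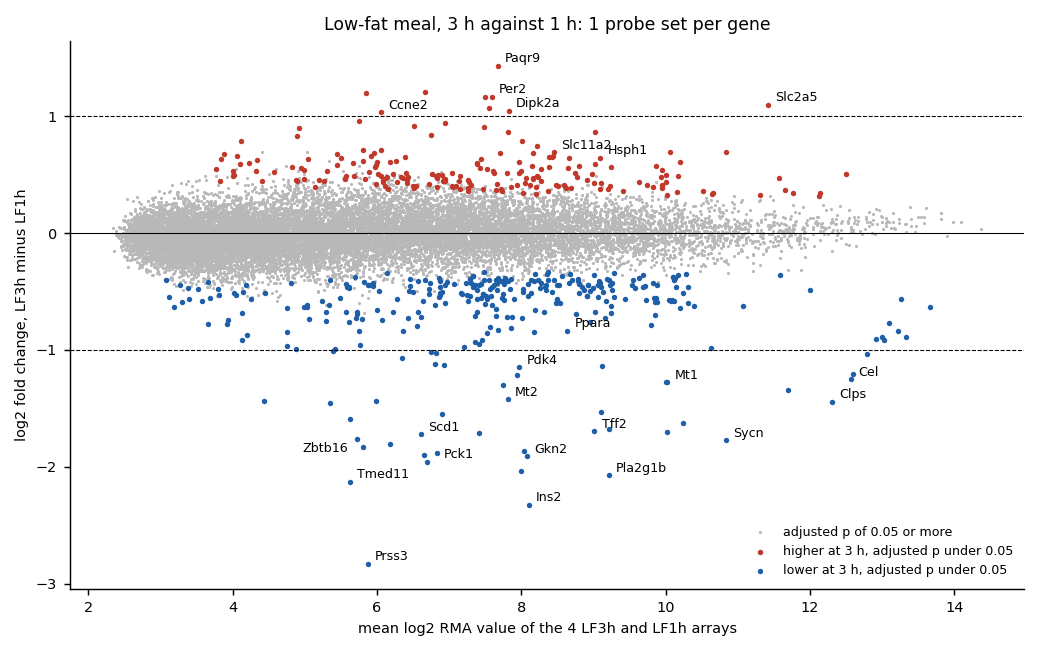
Each point is a gene (1 probe set), with the mean log2 RMA value of the 4 arrays on the x axis and the log2 fold change, LF3h minus LF1h, on the y axis; dashed lines mark 2-fold. Coloured points have an adjusted p under 0.05, and the falls reach further (Prss3 at -2.83) than the rises (Paqr9 at 1.43).

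Paqr9, a membrane protein of the progestin and adipoQ receptor family, showed the largest rise. Its values were 8.40 and 8.39 on the LF3h arrays, against 7.08 and 6.84 on the LF1h arrays (log2 fold change 1.43 ± 0.13 (SE), adjusted p = 2.3e-05), and its other probe set rose by a log2 fold change of 1.39. Per2, a repressor in the circadian clock, stood at 8.17 and 8.18 at 3 h, against 7.14 and 6.88 at 1 h (log2 fold change 1.17 ± 0.12 (SE), adjusted p = 0.00011). The fructose transporter Slc2a5 (GLUT5), which brings fructose across the brush border, was at 11.96 and 11.97 at 3 h, against 10.89 and 10.84 at 1 h (log2 fold change 1.10 ± 0.08 (SE), adjusted p = 2.5e-06). For these 3 genes both LF3h arrays lay above both LF1h arrays by more than the gap within either pool. Without that margin 21.8% of all genes had both LF3h arrays above both LF1h arrays, and the rule that named these genes required it. Further rises past 2-fold were Dipk2a, a secreted kinase-like protein, at 2.06-fold (log2 fold change 1.05 ± 0.09, adjusted p = 1.8e-05), and Ccne2, the cyclin E2 that opens S phase, which was at least 2.05-fold higher (1.04 ± 0.16, adjusted p = 0.0036). "At least" marks a gene whose mean was below 6 in 1 pool, where RMA compresses differences.

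The other 4 genes that rose past 2-fold are variable segments of the immunoglobulin κ light chain, the antigen-binding part of antibodies: a segment of the Igkv15 family (log2 fold change 1.21), Igkv6-20 (at least 2.29-fold higher), Igkv6-14 (log2 fold change 1.17) and Igkv4-72 (1.07). Igkv6-14 was at 8.06 and 8.10 at 3 h, against 6.89 and 6.94 at 1 h. Segments of the same family are close copies, so a probe set may read several of them. The constant gene of the κ chain, Igkc, was not measured, so whether it moved with these segments was not tested. Igha, the heavy chain of IgA, did not pass limma's test. It was at 13.90 and 13.91 at 3 h, against 13.75 and 13.71 at 1 h. Its log2 fold change was 0.17 ± 0.08 (SE), with an adjusted p = 0.3. Jchain, which joins IgA dimers, did not pass either, with a log2 fold change of 0.13 ± 0.09. One of 10 measured members of the B and plasma cell list passed the test, the B cell antigen Ms4a1 (0.56 ± 0.12, adjusted p = 0.024), and it did not without LF3h replicate 1 or LF1h replicate 1. The list's mean log2 value was 7.75 and 7.76 on the LF3h arrays and 7.62 and 7.57 on the LF1h arrays.

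**Figure D2:**
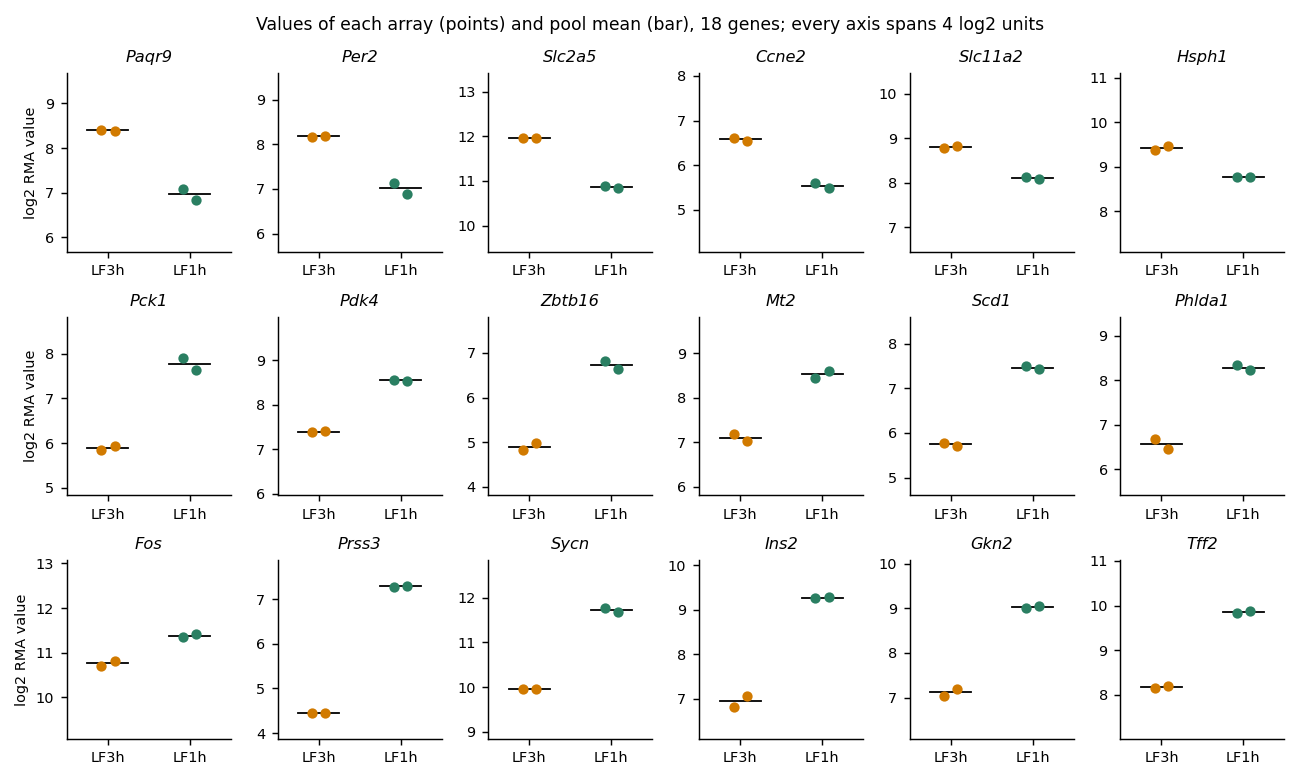
Log2 RMA value of each array (points) and pool mean (bars) for 18 genes, with LF3h left of LF1h in each panel and every y axis spanning 4 log2 units. In all 18 panels the 2 LF3h points and the 2 LF1h points do not overlap, which the naming rule required of the largest changes. Over all genes, 24.6% had both LF3h arrays below both LF1h arrays and 21.8% had both above. The gap is widest for Prss3 (4.46 at 3 h and 7.29 at 1 h).

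Of 16 measured genes of gluconeogenesis and pyruvate fate 2 fell, Pck1 and Pdk4, 2 rose and 12 did not pass, with a median of 0.06. Pck1, which commits oxaloacetate to gluconeogenesis, was at 5.84 and 5.94 at 3 h, against 7.90 and 7.65 at 1 h (log2 fold change -1.88 ± 0.10 (SE), adjusted p = 1.9e-07), at least 3.68-fold lower. Pdk4, which shuts pyruvate dehydrogenase and spares glucose, was at 7.38 and 7.41 at 3 h, against 8.55 and 8.54 at 1 h (log2 fold change -1.15 ± 0.08 (SE), adjusted p = 2.2e-06). Ppara, the nuclear receptor for fatty acids, was at 8.17 and 8.27 at 3 h, against 9.10 and 9.02 at 1 h (log2 fold change -0.84 ± 0.09 (SE), adjusted p = 9.7e-05). Each had its highest mean of the 4 LF-side pools in the fasting pool, and Pck1 was at 9.22 in the fasting pool, 8.99 at 30 min, 7.77 at 1 h and 5.89 at 3 h. Pdk4 followed the same order, with 9.66 in the fasting pool, 9.43 at 30 min, 8.54 at 1 h and 7.40 at 3 h. The 2 other probe sets of Pck1 gave smaller falls, down to -0.08. The 2 rises were G6pc, glucose-6-phosphatase, which releases free glucose (0.32 ± 0.08, adjusted p = 0.048), and Pdhb, a subunit of pyruvate dehydrogenase (0.48 ± 0.09, adjusted p = 0.011). Without LF1h replicate 1 the count of rises was 1, and without any of the other 3 arrays it was 0, while both falls stayed past the test in all 4 fits.

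Among genes tied to FOXO1, 32 of 32 list members were measured, 3 rose and 4 fell, and 25 did not pass the test. Over all 18193 genes 1.08% rose and 1.71% fell under the same rule, and the median log2 fold change was -0.01 against -0.07 for the list. Pck1, Pdk4, the stress protein Sesn1 (-0.55) and the insulin receptor Insr (-0.40) fell. Bcl6, a transcriptional repressor that opposes PPARα on fat-burning genes in liver, rose (6.18 and 6.29 at 3 h, against 5.36 and 5.20 at 1 h; log2 fold change 0.96 ± 0.10 (SE), adjusted p = 6.4e-05), as did the coactivator Cited2 (0.65) and G6pc. The receptor substrate Irs2 had a log2 fold change of -0.01. The 4 falls became 2 without LF3h replicate 1.

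Of 28 measured genes of fatty acid oxidation and PPARα response 0 rose and 4 fell, namely Pdk4, Ppara, the pantetheinase Vnn1 (-0.41) and Angptl4 (-0.33), an inhibitor of lipoprotein lipase. The count was 2 when any of the 4 arrays was left out. The oxidation enzymes themselves did not pass: Cpt1a, the gate of mitochondrial fat entry, had -0.21 and Hadha, of the trifunctional protein, -0.12. The list's median was -0.12.

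The glucocorticoid-responsive list had 7 falls and no rise among 20 measured genes (median -0.29), against 1.71% falls and 1.08% rises over all genes. Zbtb16, a zinc finger repressor, was at 4.82 and 4.97 at 3 h, against 6.81 and 6.64 at 1 h (log2 fold change -1.83 ± 0.15 (SE), adjusted p = 1.2e-05), and the metallothioneins Mt1 and Mt2, which bind zinc and copper, fell with it. Mt2 was at 7.19 and 7.02 at 3 h, against 8.44 and 8.61 at 1 h (log2 fold change -1.42 ± 0.10 (SE), adjusted p = 1.3e-06), and Mt1 at 9.37 and 9.40 at 3 h, against 10.65 and 10.67 at 1 h (log2 fold change -1.28 ± 0.08 (SE), adjusted p = 8.4e-07). The remaining falls were Errfi1 (-0.73), Dusp1 (-0.45), Klf9 (-0.40) and Angptl4. Several classical targets did not pass, among them Fkbp5 at -0.19, Tsc22d3 at 0.01 and Sgk1 at 0.30. Without LF3h replicate 2, or without LF1h replicate 1, 4 falls remained past the test. In time order Mt2 was at 8.48 in the fasting pool, 8.40 at 30 min, 8.53 at 1 h and 7.10 at 3 h, and Mt1 at 10.18 in the fasting pool, 10.32 at 30 min, 10.66 at 1 h and 9.38 at 3 h.

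Lipid desaturases moved in opposite directions. Scd1, stearoyl-CoA desaturase 1, which makes oleate from stearate, was at 5.78 and 5.71 at 3 h, against 7.50 and 7.43 at 1 h (log2 fold change -1.72 ± 0.10 (SE), adjusted p = 2e-07), at least 3.3-fold lower. Its relative Scd2 was at 6.99 and 6.95 at 3 h, against 6.11 and 6.01 at 1 h (log2 fold change 0.91 ± 0.10 (SE), adjusted p = 0.00025). The 1 h pool was the only high one after the LF meal for Scd1, with means of 6.21 in the fasting pool, 6.02 at 30 min, 7.47 at 1 h and 5.74 at 3 h. A second Scd1 probe set, with lower values, had a log2 fold change of -0.37. No other of the 17 measured genes of fatty acid synthesis passed the test.

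Immediate early genes, which are switched on within minutes of a growth or stress signal, were lower at 3 h. Of 28 measured, 7 fell and 0 rose, and 14 were lower at an unadjusted p under 0.05 (list median -0.20). Atf3, a stress-induced repressor, was at 7.02 and 6.99 at 3 h, against 7.93 and 7.90 at 1 h (log2 fold change -0.92 ± 0.08 (SE), adjusted p = 2.9e-05). Fos, a component of the AP-1 factor, was at 10.71 and 10.81 at 3 h, against 11.35 and 11.41 at 1 h (log2 fold change -0.62 ± 0.08 (SE), adjusted p = 0.0007). Egr1 (-0.60), the mRNA-destabilizing protein Zfp36 (-0.62), Maff (-0.74) and the MAP kinase phosphatase Dusp1 (-0.45) also fell. The count was 4 without LF3h replicate 1 or 2.

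CREB1 is a factor that binds the cAMP response element TGACGTCA and drives several of these genes. Of 23 measured CREB1 targets 5 fell (Pck1, Fos, Egr1, Dusp1 and Nfil3, the last at -0.39) and 1, Per2, rose, with a median of -0.18. The count of falls was 3 without LF3h replicate 2 and without LF1h replicate 1. The 250 bases before a start site are printed for 4 genes that fell (RefSeq, GRCm38.p6, 5′ to 3′ on the gene's strand). Errfi1, Maff and Dusp1 were printed because they hold the element, and Pck1, the largest fall of the CREB1 list, because it does not. Errfi1 is on neither the CREB1 list nor the immediate early list. Capitals mark TGACGTCA in Errfi1 (chr4:150854820-150855069, plus strand), Maff (chr15:79347270-79347519, plus strand) and Dusp1 (chr17:26508473-26508722, minus strand), and the shorter core ACGTCA in Pck1 (chr2:173152823-173153072, plus strand).
Errfi1: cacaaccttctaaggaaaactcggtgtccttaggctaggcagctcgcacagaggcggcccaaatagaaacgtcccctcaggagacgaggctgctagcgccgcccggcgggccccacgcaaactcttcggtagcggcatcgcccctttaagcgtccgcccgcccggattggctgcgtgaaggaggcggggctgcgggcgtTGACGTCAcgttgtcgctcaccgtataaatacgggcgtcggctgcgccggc
Maff: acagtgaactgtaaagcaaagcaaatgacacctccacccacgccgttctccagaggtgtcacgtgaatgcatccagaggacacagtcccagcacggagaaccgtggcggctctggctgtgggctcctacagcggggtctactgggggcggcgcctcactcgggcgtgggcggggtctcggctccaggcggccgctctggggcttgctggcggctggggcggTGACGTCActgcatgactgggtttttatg
Dusp1: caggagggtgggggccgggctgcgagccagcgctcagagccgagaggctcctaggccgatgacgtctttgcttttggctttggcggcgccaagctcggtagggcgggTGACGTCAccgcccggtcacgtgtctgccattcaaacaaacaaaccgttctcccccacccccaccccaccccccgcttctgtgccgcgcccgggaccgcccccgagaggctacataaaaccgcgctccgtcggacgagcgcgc
Pck1: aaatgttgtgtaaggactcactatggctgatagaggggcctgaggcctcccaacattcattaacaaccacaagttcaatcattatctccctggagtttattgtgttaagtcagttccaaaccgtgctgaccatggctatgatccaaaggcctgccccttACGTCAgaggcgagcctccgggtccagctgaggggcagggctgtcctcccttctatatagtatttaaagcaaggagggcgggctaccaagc
TGACGTCA stands 51 bases before the start used in Errfi1, 29 in Maff and 143 in Dusp1. The core stands 91 bases before the start of Pck1. Errfi1 has 2 windows and Maff 3, and a window that holds the element was printed. Both printed windows lie downstream of the gene's first base, which is at 150853796 for Errfi1 and 79346621 for Maff. On either strand 1.55% of all 32851 promoter windows hold TGACGTCA and 6.47% hold ACGTCA. By gene, with any of its windows counted, the shares are 1.77% and 7.29% of 27025. The full element was found in 3 of the 23 immediate early genes with a window. It was in 2 of the 17 CREB1 targets with one, and the core in 9 of those 17. Of the members past the test with a window, 2 of 6 immediate early genes and 1 of 4 CREB1 targets hold the full element, and 3 of those 4 the core. A match of letters says nothing of binding.

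Growth factor feedback genes, picked after their values were seen, were lower as well. Phlda1, a pleckstrin-domain protein induced by growth factors, was at 6.67 and 6.46 at 3 h, against 8.33 and 8.22 at 1 h (log2 fold change -1.71 ± 0.10 (SE), adjusted p = 4.8e-07). Socs3, the cytokine-signalling inhibitor, was at 7.31 and 7.36 at 3 h, against 8.68 and 8.42 at 1 h (log2 fold change -1.22 ± 0.09 (SE), adjusted p = 5.7e-06), after 6.76 in the fasting pool. The receptor Erbb3 was at 10.06 and 10.21 at 3 h, against 11.12 and 11.12 at 1 h (log2 fold change -0.99 ± 0.08 (SE), adjusted p = 1.2e-05). Epiregulin (Ereg), a ligand of the epidermal growth factor receptor, fell by 0.96, the ligand Hbegf by 0.73 and the phosphatase Dusp5 by 0.85, all in log2. Errfi1, an inhibitor of that receptor, belongs with them. Tifa, an adaptor of innate signalling, had a log2 fold change of -1.03 ± 0.12, and it lay just past 2-fold, like the methyltransferase Gnmt (-1.01). Just under that limit were Cirbp, Erbb3, Cyp39a1 (-0.99) and Ubd (-0.98). Tifa, Gnmt, Cyp39a1 and Ubd were also picked with their values in view.

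Pancreatic genes were lower at 3 h. All 16 measured members of the list of digestive enzymes, out of 25, were lower at 3 h, with a median log2 fold change of -1.08. Prss3, a trypsinogen, was at 4.46 and 4.46 at 3 h, against 7.27 and 7.31 at 1 h (log2 fold change -2.83 ± 0.11 (SE), adjusted p = 2.3e-08), at least 7.1-fold lower. The phospholipase Pla2g1b was at 8.14 and 8.22 at 3 h, against 10.25 and 10.25 at 1 h (log2 fold change -2.07 ± 0.10 (SE), adjusted p = 7e-08). The elastase Cela3b had -0.64 on the probe set used, whose mean of 13.98 at 1 h is near the top of the scale, and -1.15, -1.18 and -1.41 on its 3 other probe sets. Colipase (Clps) had a log2 fold change of -1.45 ± 0.08, the bile salt-stimulated lipase Cel -1.25 ± 0.08, and Pnliprp1, a lipase relative, -1.34 ± 0.09. The list's mean log2 value was 11.01 and 11.06 on the LF3h arrays, against 12.25 and 12.25 on the LF1h arrays.

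Other genes of the acinar cell, the pancreatic cell that makes these enzymes, went the same way. Of 13 measured, 9 were lower and 4 did not pass, with a median of -1.62. Sycn, a zymogen granule protein, was at 9.95 and 9.96 at 3 h, against 11.77 and 11.69 at 1 h (log2 fold change -1.77 ± 0.09 (SE), adjusted p = 7e-08). Gp2, the granule membrane protein, was at 9.15 and 9.19 at 3 h, against 10.91 and 10.84 at 1 h, and the disulphide isomerase Pdia2, picked from the list after its value was seen, fell too (-1.53). The acinar factors Ptf1a (-0.61 ± 0.19) and Rbpjl (-0.04 ± 0.13) were near the floor of the arrays and did not pass, and the trypsin inhibitor Spink1, which the gut also makes, had 0.06 ± 0.08.

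Islet hormones fell with the enzymes. Ins2, insulin, was at 6.81 and 7.07 at 3 h, against 9.26 and 9.28 at 1 h (log2 fold change -2.32 ± 0.09 (SE), adjusted p = 3.3e-08), 5.01-fold lower. Amylin (Iapp), stored with insulin, was at 6.10 and 6.15 at 3 h, against 7.78 and 7.57 at 1 h (log2 fold change -1.55 ± 0.14 (SE), adjusted p = 3.7e-05), and pancreatic polypeptide (Ppy) had -0.38 ± 0.09 (adjusted p = 0.05, under the threshold before rounding). The other 4 of 7 measured islet genes did not pass (Ucn3, Slc30a8, Nkx6-1 and G6pc2, between -0.09 and 0.23), and the list's mean log2 value was 4.42 and 4.46 at 3 h and 4.98 and 4.98 at 1 h. In a scraped and pooled sample, fewer cells of a type and less RNA per cell cannot be told apart.

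Stomach and Brunner gland genes were also lower, 9 of 16 measured with 0 rises (median -0.71). The gastrokines, proteins of the gastric surface, fell, with log2 fold changes of -1.96 for Gkn1, -1.91 for Gkn2 and -1.43 for Gkn3. Gkn2 was at 7.04 and 7.20 at 3 h, against 9.01 and 9.05 at 1 h (log2 fold change -1.91 ± 0.08 (SE), adjusted p = 3.5e-08). The trefoil peptides, which protect the mucus layer, fell too: Tff2 was at 8.14 and 8.19 at 3 h, against 9.84 and 9.89 at 1 h (log2 fold change -1.70 ± 0.08 (SE), adjusted p = 7e-08) and Tff1 at 8.44 and 8.65 at 3 h, against 9.72 and 9.65 at 1 h (log2 fold change -1.14 ± 0.09 (SE), adjusted p = 4.6e-06). Acid secretion genes gave smaller values, with Atp4a, the proton pump, at -0.78 and its partner Atp4b at -0.28, which did not pass. The mean log2 value of the list was 5.61 and 5.54 on the LF3h arrays and 6.33 and 6.38 on the LF1h arrays. Without LF3h replicate 2 the count was 5.

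Modulated genes outside these lists are given with no assignment to a cell type. Tmed11 (-2.13), Reg2 (-2.03) and Klk1b5 (-1.80) were among the 15 largest falls. The cholecystokinin receptor Cckar (-1.59), the amino acid carrier Slc38a5 (-1.46), Amy1 (-1.44), Hamp2 (-1.12), Nucb2 (-1.06) and Reg3d (-1.02) were picked after their values were seen. Nupr1, a stress-induced chromatin protein, was at 6.92 and 7.28 at 3 h, against 8.38 and 8.43 at 1 h (log2 fold change -1.30 ± 0.11 (SE), adjusted p = 1.6e-05). It and asparagine synthetase, Asns (-0.52), were the only 2 of 27 measured genes of the ATF4 amino acid response to pass, and none of 13 aminoacyl-tRNA synthetases did, with 1 higher and 0 lower at an unadjusted p under 0.05 (limma).

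Few markers of the mucosa's own cell types passed the test. Of 20 measured enterocyte markers, the glucose transporter Slc2a2 rose (0.35 ± 0.08, adjusted p = 0.045) and the aminopeptidase Anpep fell (-0.36 ± 0.08, adjusted p = 0.045). Neither passed when any 1 of the 4 arrays was left out. No goblet (10 measured), Paneth (5), enteroendocrine (19), crypt stem cell (10), T cell (14) or smooth muscle (14) marker passed limma's test, and at an unadjusted p under 0.05 these lists held 2, 0, 2, 3, 0 and 2 genes. The incretin Gip was at 10.36 and 10.44 at 3 h, against 10.41 and 10.41 at 1 h. Of 16 macrophage, neutrophil and mast cell markers Lyz2 (0.39 ± 0.08) and C1qa (0.35 ± 0.08) rose, and the count was 0 when any 1 of the 4 arrays was left out. Of 8 adipocyte markers 3 fell, all at low values: Lpl was at 5.81 and 5.60 at 3 h, against 6.52 and 6.37 at 1 h, Adipoq at 2.90 and 2.86 at 3 h, against 3.49 and 3.53 at 1 h and Retn at 5.50 and 5.51 at 3 h, against 5.85 and 5.91 at 1 h. That count was 1 without LF3h replicate 2 and without LF1h replicate 2.

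**Figure D3:**
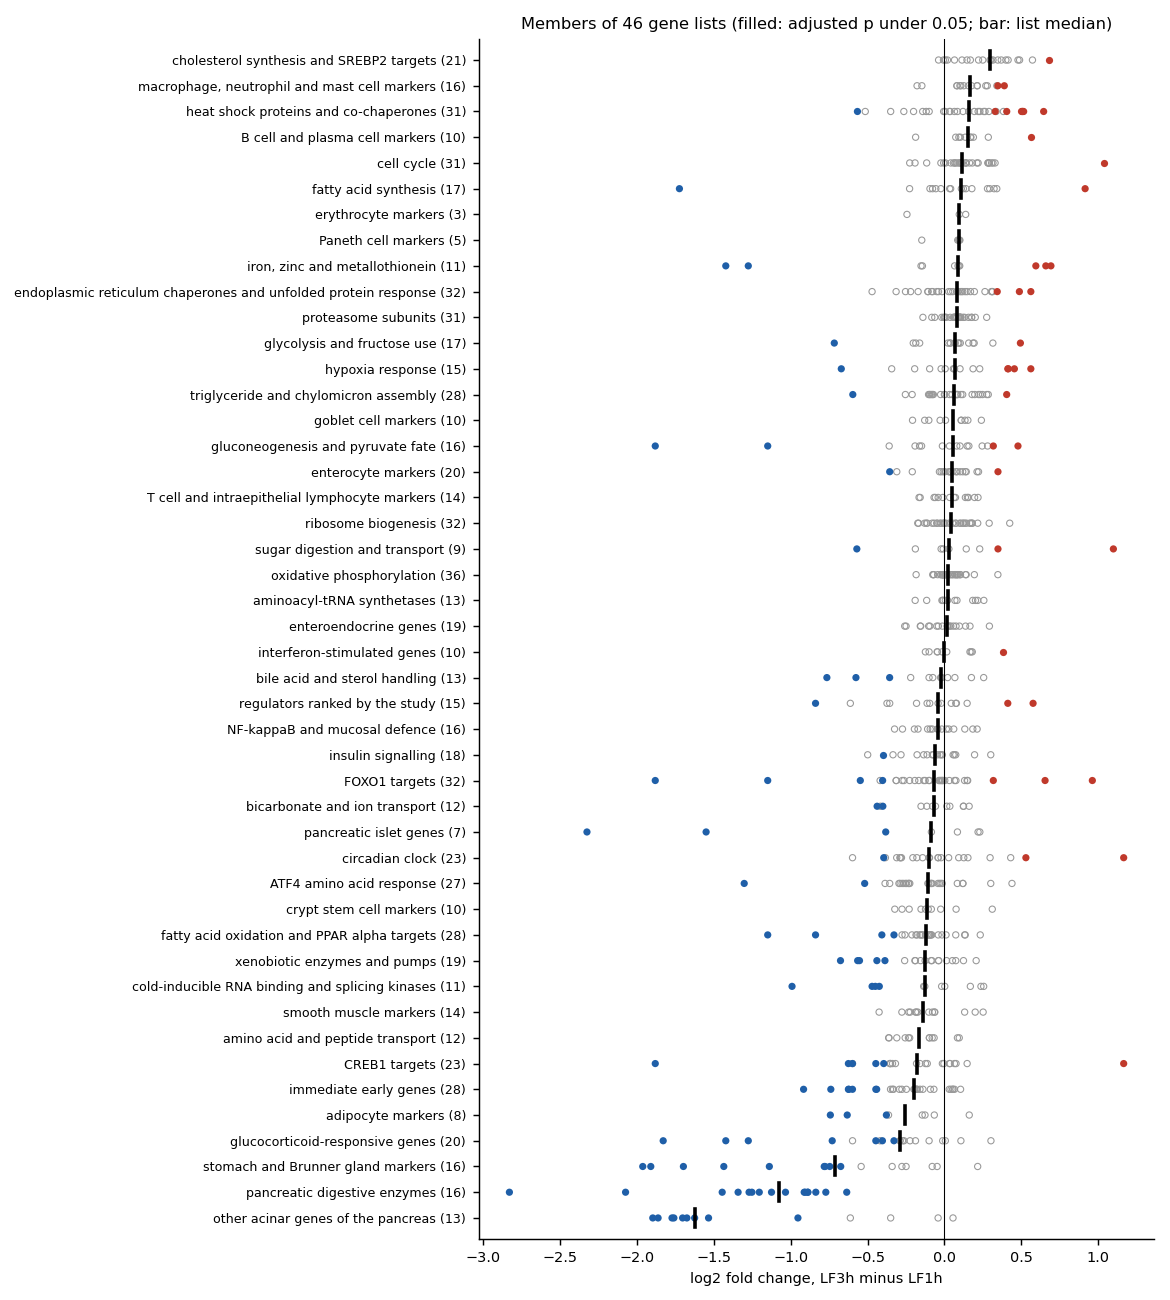
Log2 fold change, LF3h minus LF1h, on the x axis for the measured members of 46 gene lists, ordered by median (black bars; number measured in parentheses). Filled points have an adjusted p under 0.05, red for higher and blue for lower; the pancreatic lists lie furthest left, with medians of -1.62 and -1.08, and the cholesterol synthesis list furthest right at 0.30.

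Genes of sugar uptake divided. Slc2a5 and Slc2a2 rose, whereas Slc5a4a, a relative of the sodium-glucose transporter, fell (7.47 and 7.50 at 3 h, against 7.99 and 8.12 at 1 h; log2 fold change -0.57 ± 0.08 (SE), adjusted p = 0.0022). The other 6 of 9 measured members did not pass. The call of Slc2a2 was lost whichever array was left out, with arrays centred on their medians and after quantile normalization, which left Slc2a5 as the list's rise. Tkfc, triokinase, which acts after fructose is split, rose to 10.21 and 10.31 at 3 h, against 9.80 and 9.73 at 1 h (log2 fold change 0.49 ± 0.08 (SE), adjusted p = 0.005). Pfkfb3, which makes the activator of glycolysis fructose 2,6-bisphosphate, fell (-0.72 ± 0.10, adjusted p = 0.0013). Tkfc did not pass without LF3h replicate 2 or without LF1h replicate 2.

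Iron uptake genes rose. Slc11a2 (DMT1), the brush border importer of ferrous iron, was at 8.78 and 8.82 at 3 h, against 8.13 and 8.09 at 1 h (log2 fold change 0.69 ± 0.08 (SE), adjusted p = 0.00031). Its ferric reductase Cybrd1 was at 9.37 and 9.27 at 3 h, against 8.80 and 8.66 at 1 h (log2 fold change 0.59 ± 0.10 (SE), adjusted p = 0.0066), and the transferrin receptor Tfrc at 8.72 and 8.84 at 3 h, against 8.13 and 8.11 at 1 h (log2 fold change 0.66 ± 0.09 (SE), adjusted p = 0.00079). These are 3 of 11 measured members of the metal list. The 2 that fell are the metallothioneins. Cybrd1 did not pass without LF3h replicate 1 or without LF1h replicate 2. The 3 probe sets of Tfrc gave 0.66 to 1.03, and the 4 of Slc11a2 0.10 to 0.69. Slc11a2 was higher at each later time, with 7.05 in the fasting pool, 7.43 at 30 min, 8.11 at 1 h and 8.80 at 3 h.

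Heat shock proteins, which hold other proteins in shape, were higher at 3 h for 7 of 31 measured members, with 1 lower and a median of 0.16. Hsph1, a nucleotide exchange factor for HSP70, was at 9.38 and 9.46 at 3 h, against 8.78 and 8.77 at 1 h (log2 fold change 0.64 ± 0.09 (SE), adjusted p = 0.0013). The constitutive HSP70 Hspa8 had 0.51 ± 0.09, the small chaperone Hspb1 0.51 ± 0.11, and the co-chaperones Chordc1 and Stip1 0.51 ± 0.10 and 0.50 ± 0.10. Dnajb1, a partner of HSP70, fell (-0.57 ± 0.08, adjusted p = 0.0018), and the inducible Hspa1a and Hspa1b, near-identical copies, had -0.26 and 0.04. The count of rises depended on every array, between 1 and 3 when 1 of the 4 was left out. One Hspa8 probe set went the other way, at -0.72. In the endoplasmic reticulum list 3 of 32 rose: the chaperone Hspa5 (0.34 ± 0.08), its helper Dnajb9 (0.49 ± 0.08) and the oxidase Ero1a (0.56 ± 0.09). Without LF3h replicate 1 or LF1h replicate 2 this count was 1, and without LF3h replicate 2 it was 0.

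The windows of 2 risers of these lists are shown, since each holds the element of its own program (RefSeq, GRCm38.p6, plus strand for both). Capitals mark the heat shock letters GAANNTTC in Hspb1 (chr5:135887669-135887918, plus strand) and, in Hspa5 (chr2:34771840-34772089, plus strand), the element of the unfolded protein response, CCAAT and CCACG with 9 bases of any kind between them.
Hspb1: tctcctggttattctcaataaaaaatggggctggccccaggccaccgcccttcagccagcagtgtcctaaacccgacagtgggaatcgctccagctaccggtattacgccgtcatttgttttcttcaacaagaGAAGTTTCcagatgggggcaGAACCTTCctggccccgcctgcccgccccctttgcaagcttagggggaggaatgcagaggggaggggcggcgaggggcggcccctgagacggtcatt
Hspa5: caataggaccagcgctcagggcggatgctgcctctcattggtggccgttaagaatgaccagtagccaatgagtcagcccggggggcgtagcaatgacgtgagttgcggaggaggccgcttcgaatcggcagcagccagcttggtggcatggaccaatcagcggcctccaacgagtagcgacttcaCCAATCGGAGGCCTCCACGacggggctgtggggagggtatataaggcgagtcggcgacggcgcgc
GAANNTTC occurred 117 and 97 bases before the start of Hspb1, and the Hspa5 element 65 bases before. GAANNTTC was in 6.69% of all windows, or 7.73% of genes. It was in 8 of the 26 heat shock genes with a window, of which Hspb1 and Dnaja1 passed the test. The longer element was in 0.113% of all windows, or 0.13% of genes. It was in 10 of the 28 genes of the reticulum list, of which Hspa5 alone passed. Most genes that carry the letters did not pass the test at this step.

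Cholesterol synthesis genes gave the highest list median, 0.30, but 1 of 21 passed the test, Idi1, an isomerase of the isoprenoid steps (8.10 and 7.99 at 3 h, against 7.52 and 7.20 at 1 h; log2 fold change 0.68 ± 0.13 (SE), adjusted p = 0.014). At an unadjusted p under 0.05, 13 were higher and 0 lower, among them Cyp51 (0.57), Insig1 (0.49) and squalene epoxidase Sqle (0.48). The list's count was 4 without LF1h replicate 1 and 0 without any of the other 3 arrays. The sterol exporters went down: Abca1, which loads lipid onto apolipoprotein, was at 8.53 and 8.60 at 3 h, against 9.38 and 9.28 at 1 h (log2 fold change -0.76 ± 0.09 (SE), adjusted p = 0.00034), and Abcg8 and Abcg5, which pair into the pump that returns plant sterols to the lumen, had -0.58 ± 0.08 and -0.36 ± 0.08. They were the 3 of 13 measured genes of bile acid and sterol handling to pass.

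Genes for foreign compounds fell in 5 of 19 cases with 0 rises (median -0.13): Cyp1a1 (-0.68), Cyp2c55 (-0.56), the pumps Abcc2 (-0.55) and Abcb1a (-0.39), and Tiparp (-0.44), a target of the aryl hydrocarbon receptor. Between 2 and 3 passed when 1 array was left out. The cold-inducible RNA-binding protein Cirbp was at 4.88 and 4.97 at 3 h, against 5.89 and 5.94 at 1 h (log2 fold change -0.99 ± 0.12 (SE), adjusted p = 0.00038), and the splicing kinases Clk1 (-0.47) and Clk4 (-0.42) and the cyclin Ccnl1 (-0.45) fell with it, 4 of 11 measured. Without LF3h replicate 1 or LF1h replicate 1 only 1 of these passed, and without LF1h replicate 2 there were 2.

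In the clock list Per2 and Hlf, an activator of the output loop, rose (Hlf 0.53 ± 0.09) and Nfil3, its antagonist on the same sites, fell (-0.39 ± 0.09), of 23 measured. Per1 had -0.60 and Arntl, the activator BMAL1, -0.10, neither passing. One of 3 Per2 probe sets had -0.18. Nfil3 did not pass whichever array was left out, and Hlf passed without LF1h replicate 1 but not in the other 3 fits. Of 15 genes of the hypoxia response 4 rose, Hif1a (0.41), Egln3 (0.42), Ankrd37 (0.45) and Ero1a, and Ndrg1 fell (-0.67). That count was 0 to 2 when 1 array was left out.

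Several programs gave no call. For the 31 proteasome subunits, 32 ribosome biogenesis genes, 36 genes of oxidative phosphorylation, 12 amino acid and peptide transporters and 16 genes of NF-κB and mucosal defence, limma called 0 in either direction. At an unadjusted p under 0.05 they held 2, 2, 2, 6 and 2 genes, and the 6 transporters were all lower, Slc7a8 and Slc15a1, the peptide carrier PEPT1, among them at -0.36 and -0.31. In the cell cycle list Ccne2 alone of 31 passed. Outside the lists and below 2-fold, Nfkbiz (0.87 ± 0.10), an NF-κB cofactor, and the stromal genes Tcf21 (0.94 ± 0.16) and Pdgfra (0.79 ± 0.12) were higher, and they were picked after their values were seen.

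The study named regulators from these arrays combined with its tag libraries, so they are no independent list. Mapk7 (the kinase ERK5) stands among them for a pathway the study named. The study ranked them through their target genes among those modulated against fasting, and measured FOXO1, CREB1 and PPARα as protein by western blot. The values here are the regulators' own mRNA at 3 h against 1 h, which does not test that ranking. Of 15 measured, Ppara fell, and Pdx1, a factor of duodenum and pancreas, and Hif1a rose, and 12 did not pass. Without LF1h replicate 1 both rises passed, and without any of the other 3 arrays neither did. Pdx1 was at 9.08 and 9.11 at 3 h, against 8.64 and 8.40 at 1 h (log2 fold change 0.58 ± 0.12 (SE), adjusted p = 0.027). Foxo1 was at 8.28 and 8.28 at 3 h, against 8.52 and 8.27 at 1 h (log2 fold change -0.11 ± 0.11 (SE), adjusted p = 0.68) and Creb1 at 8.46 and 8.50 at 3 h, against 8.46 and 8.34 at 1 h (log2 fold change 0.08 ± 0.09 (SE), adjusted p = 0.74). Cebpb (-0.36), Nr5a2 (-0.37), Nr4a1 (-0.18), Ptf1a, Mapk7 (-0.10), Rbpjl, Epas1 (-0.02), Mlx (0.04), Smad3 (0.07) and Ppargc1a (0.15) did not pass. A dimmer probe set of Nr5a2 did pass, at -0.48. Cebpb passed after quantile normalization (-0.37) and on the mean of its probe sets (-0.38).

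Other probe sets of a few genes with a call went against it. For genes that fell by the probe set used, the highest values were 0.16 for Klf9, 0.23 for Insr and 0.08 for Lpin2. They were 0.06 for Pla2g1b, 0.06 for Mt1, 0.05 for Lpl and 0.05 for Hamp2. Acsl3, which rose, had a lowest value of -0.07, and those of Per2 and Hspa8 are given above. Of the 132 named genes past the test, 22 lost the call whichever of the 4 arrays was left out: Abcb1a, Abcg5, Acsl3, Angptl4, Anpep, C1qa, Cftr, Egln3, G6pc, Guca2a, Hspa5, Hspb1, Ifit3, Insr, Klf9, Lyz2, Nfil3, Ppy, Retn, Slc2a2, Tiparp and Vnn1. A further 15 lost it in 3 of the 4 fits: Ankrd37, Ccnl1, Chordc1, Clk1, Clk4, Dnajb9, Dusp1, Hif1a, Hlf, Hspa8, Idi1, Maff, Pdhb, Pdx1 and Stip1. Igkv6-20, Tcf21 and Adipoq lost it without LF3h replicate 2 or LF1h replicate 2, Asns without LF3h replicate 1 or LF1h replicate 2, Nucb2, Sesn1 and Cyp1a1 without LF3h replicate 1, and Abcc2 and Ero1a without LF3h replicate 2.

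Set in the order of times, the LF pools followed several courses. Paqr9 was level at first and then higher, with 6.07 in the fasting pool, 6.03 at 30 min, 6.96 at 1 h and 8.39 at 3 h, and Slc2a5 likewise, with 10.39 in the fasting pool, 10.24 at 30 min, 10.87 at 1 h and 11.96 at 3 h. Hsph1 was higher at each time, 6.75 in the fasting pool, 7.71 at 30 min, 8.77 at 1 h and 9.42 at 3 h. Sycn was highest at 1 h, with 10.48 in the fasting pool, 10.44 at 30 min, 11.73 at 1 h and 9.96 at 3 h, and Prss3 had the same shape, with 5.19 in the fasting pool, 5.01 at 30 min, 7.29 at 1 h and 4.46 at 3 h. Ins2 did not: it was 8.99 in the fasting pool, 7.53 at 30 min, 9.27 at 1 h and 6.94 at 3 h. The gastrokine Gkn3 was highest at 30 min, at 5.04 in the fasting pool, 10.80 at 30 min, 6.71 at 1 h and 5.27 at 3 h. For the pancreatic enzymes the lower 3 h level thus follows a 1 h level that was above the fasting pool, and the LF1h pool enters both steps.

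**Figure D4:**
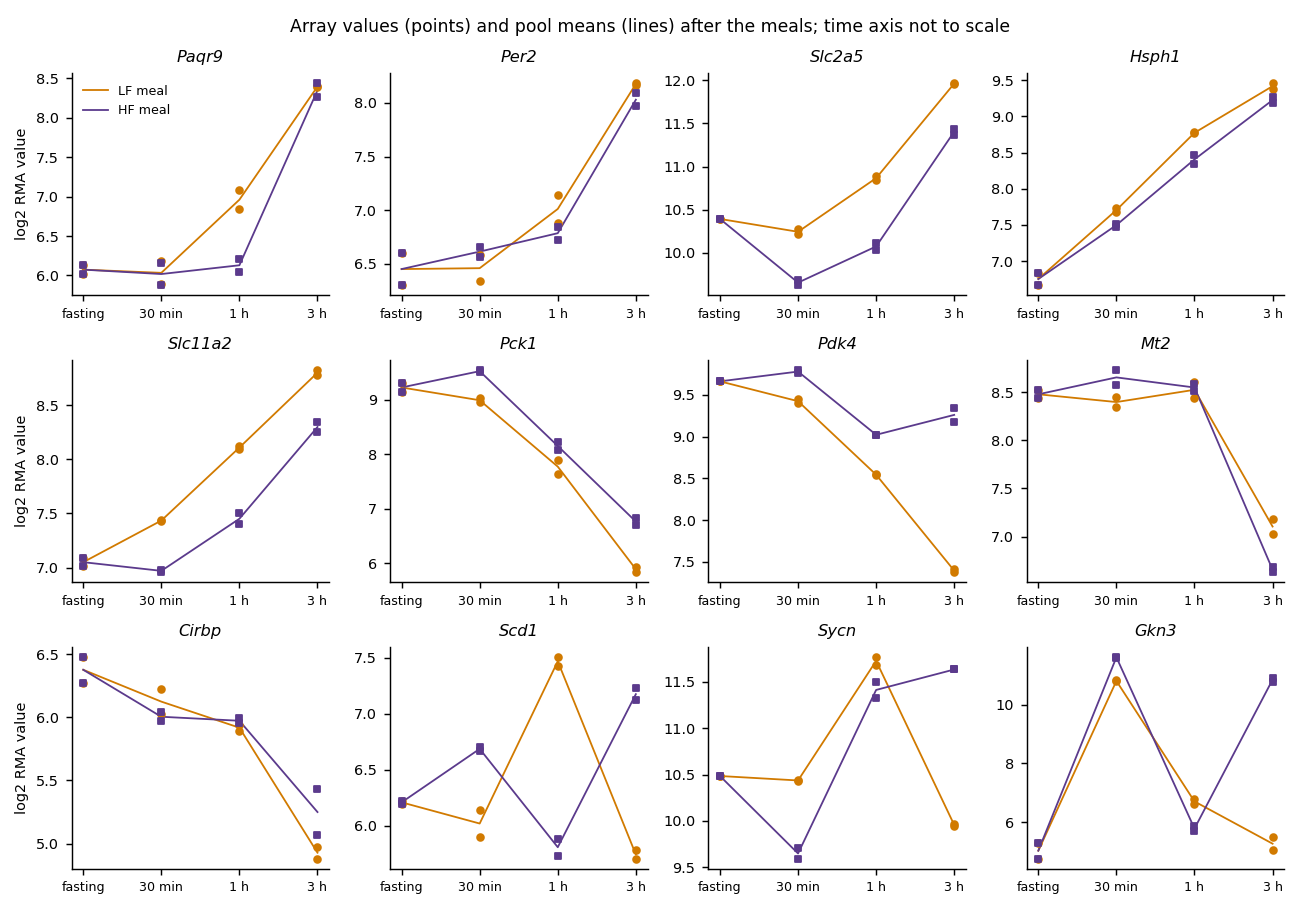
Log2 RMA value (y axis, own range in each panel) of the 2 arrays of each pool (points) and pool means (lines) for 12 genes at fasting, 30 min, 1 h and 3 h, with the LF meal in orange and the HF meal in purple; the fasting pool is shared by both lines. Paqr9, Per2 and Slc2a5 are highest at 3 h after both meals, and Sycn is highest at 1 h after the LF meal, at 11.73.

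The same step after the HF meal, which gave 60% of its calories as fat, was set beside it. It uses other arrays, HF3h and HF1h, and the difference is given as the HF step minus the LF step. With the adjusted p below 0.05 and a difference of 2-fold or more, 91 probe sets were higher (0.202%) and 11 lower (0.0244%). Of the 44 genes modulated downward after the LF meal, 37 had a called difference, and of the 9 modulated upward 3 had one. These genes were picked by their LF step, which is also part of the difference. A flat HF step alone would give them a difference of 2-fold or more, so these counts are no independent support.

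Some genes had a large step after both meals. Paqr9 had 1.43 after the LF meal and 2.22 after the HF meal (difference 0.78 ± 0.18, adjusted p = 0.099). Per2 had 1.17 and 1.24, with a difference of 0.08 ± 0.17, and Slc2a5 1.10 and 1.33, with 0.23 ± 0.11. Dipk2a had 1.05 and 1.45 (0.41 ± 0.13) and Ccne2 1.04 and 1.00 (-0.03 ± 0.23). Pck1 fell by 1.88 after the LF meal and by 1.39 after the HF meal (difference 0.49 ± 0.15), Zbtb16 by 1.83 and 1.41 (0.42 ± 0.22), and Mt2 by 1.42 and 1.89 (-0.47 ± 0.14). Erbb3 fell by 0.99 and 1.01 (-0.03 ± 0.12). None of these differences passed at an adjusted p under 0.05, which does not show that the steps are alike.

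The pancreas and stomach genes differed in their course. All 16 digestive enzymes had a higher step after the HF meal (adjusted p under 0.05, as for 0.577% of all genes), with list medians of -1.08 after the LF meal and 0.12 after the HF meal. Prss3 had -2.83 and -0.08 (difference 2.75 ± 0.15, adjusted p = 2.3e-07), and Ins2 -2.32 and 0.79 (3.11 ± 0.13). The largest difference among the named genes was in Gkn3, at -1.43 after the LF meal and 5.06 after the HF meal (6.49 ± 0.23, adjusted p = 3.3e-09). Tff2 had -1.70 and 2.07. The medians of the stomach and Brunner gland list were -0.71 and 0.14.

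Scd1 and Pdk4 were among the metabolic genes that differed between the meals. With no fold minimum, others also passed the test of the difference, such as Pfkfb3 (0.77 ± 0.14) and Idi1 (-0.97 ± 0.18). Scd1 was lower at 3 h than at 1 h after the LF meal and higher after the HF meal, with steps of -1.72 and 1.37 (difference 3.09 ± 0.14, adjusted p = 2.7e-08). Pdk4 had -1.15 and 0.24 (1.39 ± 0.12, adjusted p = 1.6e-05), whereas Ppara had -0.84 and -0.70 (0.14 ± 0.12, adjusted p = 0.76). In the fatty acid oxidation list 6 of 28 genes had a higher step after the HF meal. Phlda1 (-1.71 and -0.18) and Ereg (-0.96 and 0.36) differed in the same direction, with differences of 1.53 ± 0.15 and 1.32 ± 0.17. Of the 4 light chain segments 3 differed by 2-fold or more the other way, Igkv6-14 with 1.17 and -0.34 (-1.50 ± 0.13, adjusted p = 2e-05).

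**Figure D5:**
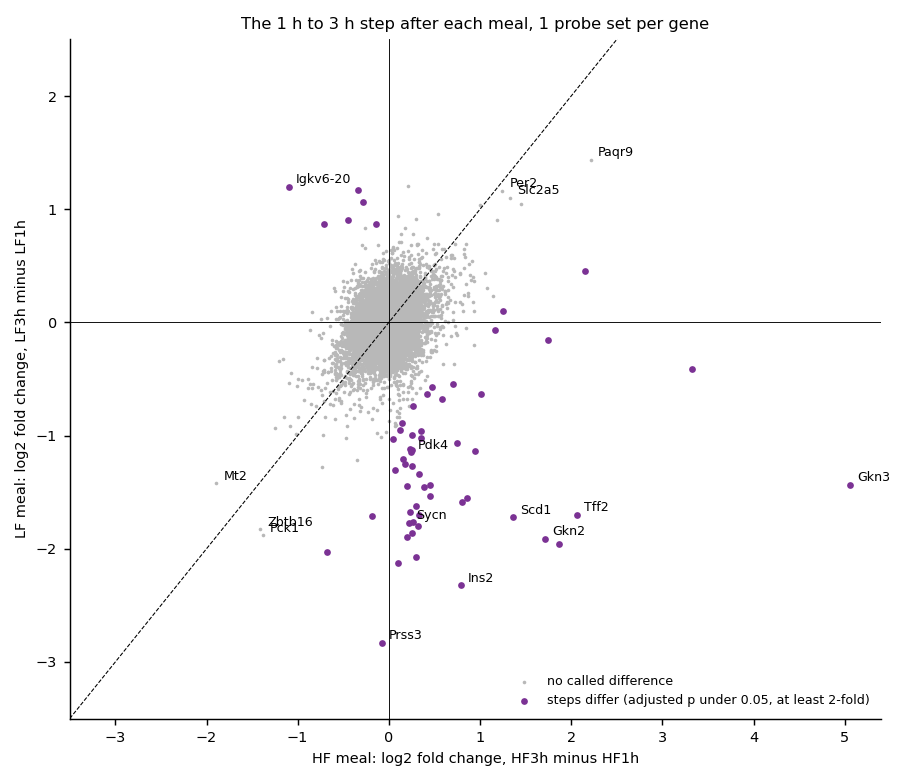
Each point is a gene (1 probe set), with the log2 fold change HF3h minus HF1h on the x axis and LF3h minus LF1h on the y axis; the dashed line marks equal steps. Purple points passed the test of the difference (adjusted p below 0.05) by 2-fold or more, and they lie mostly below the line, with Gkn3 at -1.43 after the LF meal and 5.06 after the HF meal.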

How the data were processed

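RNA of 20 mice per group was pooled by the authors and run on 2 Affymetrix mouse expression arrays per pool, for 7 pools and 14 arrays. The deposited values are log2 RMA values, background-corrected, quantile-normalized and summarized per probe set by the authors' RMA run, whose version is not given in the sources used here. No depth exists for arrays, and their number limits the precision. Of 45101 probe sets, 64 Affymetrix controls were left out. The platform annotation names 1 gene for 34945 of the rest, several for 932 and none for 9160; 34741 of the first were matched to current symbols by Entrez ID. 

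A linear model with a mean per pool was fitted to all 14 arrays with limma 3.58.1 in R 4.3.3 (residual df 7, prior df 6.4). The contrast LF3h minus LF1h, and the HF step minus the LF step, were tested with eBayes and p-values adjusted by Benjamini-Hochberg over the 45037 tests. The term modulated means an adjusted p below 0.05 with a change of 2-fold or more. List members were counted at that p with no fold minimum, on the probe set with the highest mean. The fit was tested on simulated data with known changes. Named genes were the 15 largest rises and falls among modulated genes whose arrays did not overlap (9 rises existed), the regulators named by the study, up to 6 passing members of each list and the highest cell type markers; others are named as chosen after their values were seen. Members and lists were chosen with earlier results of these data known. Motifs were searched on both strands of the 250 bases before each start (RefSeq, GRCm38.p6). Some list members without a probe set of their own were not analysed here. Alternatives changed the threshold, the normalization, the eBayes settings, the probe sets and the arrays used.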

Additional observations from a re-analysis of the deposited data

Results flagged for a closer look

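Of the genes named above, these differed between the meals in their 1 h to 3 h step, by limma's test of that difference (adjusted p below 0.05, 2-fold or more). Values are the HF step minus the LF step in log2, so a positive value means a step that was higher after the HF meal. Many of these genes were named for their LF step, which is part of the difference, so their number is no independent support. No explanation of these differences was tested.

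Stomach and Brunner gland genes led, with 6.49 for Gkn3, 3.82 for Gkn1, 3.76 for Tff2, 3.62 for Gkn2 and 2.08 for Tff1. Of pancreatic enzymes, Prss3 had 2.75, Pla2g1b 2.37, Pnliprp1 1.67, Clps 1.64 and Cel 1.43. Other acinar genes followed, with Gp2 at 2.04, Sycn at 1.99 and Pdia2 at 1.99. The islet hormones Ins2 and Iapp had 3.11 and 2.41.

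Genes given no cell type were Cckar (2.39), Tmed11 (2.23), Klk1b5 (2.12), Amy1 (1.89), Slc38a5 (1.84), Nucb2 (1.81), Reg3d (1.37), Nupr1 (1.37), Reg2 (1.36), Hamp2 (1.35) and Cyp39a1 (1.25). The fat cell hormone Adipoq had 1.64, at low values: its means were 2.88 in LF3h, 3.51 in LF1h, 4.08 in HF3h and 3.07 in HF1h. Metabolic genes were Scd1 (3.09) and Pdk4 (1.39), and signalling genes were Phlda1 (1.53), Ereg (1.32) and Maff (1.01).

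The other genes had a step that was lower after the HF meal: Igkv6-20 (-2.30), Igkv6-14 (-1.50), Igkv4-72 (-1.35) and Nfkbiz (-1.01).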

How the results depend on the processing

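The 15 higher and 75 lower modulated probe sets became 167 and 221 at a 1.5-fold minimum and 0 and 32 at 3-fold. Leaving out 1 array gave 11 to 35 higher (35 without LF1h replicate 1) and 74 to 81 lower. Without _s_at, _x_at and _a_at probe sets 43 were lower, and without the listed pancreas, stomach and Brunner gland genes 38. With no fold minimum, the 505 higher and 557 lower became 141 and 273 at an adjusted p under 0.01, 1300 and 1059 with an intensity trend, 1230 and 1025 at a pool mean of at least 6, 104 and 192 on the 4 LF3h and LF1h arrays alone, 40 and 132 with limma treat against 1.2-fold, and 95 to 345 and 235 to 345 without 1 array; without _s_at, _x_at and _a_at probe sets 320 were higher.

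The meal difference, 91 higher and 11 lower, became 180 and 49 at 1.5-fold, 50 and 3 at 3-fold, 55 and 7 without _s_at, _x_at and _a_at probe sets, 47 higher without pancreas, stomach and Brunner gland genes, and 7 lower at a pool mean of at least 6; leaving out 1 array gave 82 to 95 higher and 11 to 17 lower (17 without LF1h replicate 1 or HF1h replicate 1).

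Replicate numbers do not pair the arrays: same-numbered deviations of LF3h and LF1h correlated at -0.114. The replicate block left 15 higher and 75 lower modulated probe sets and, with no fold minimum, 443 and 507. A block with the LF1h numbers crossed, added after seeing the data, gave 15 and 75 modulated. With the replicate block 10 named genes lost their call, Slc2a2 among them (adjusted p = 0.06).

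Of 132 named genes past the test, 76 kept their direction and their side of the threshold in all 10 alternatives, and none changed sign with a call. Without LF3h replicate 1 or 2 42 lost their call each, and 29 and 41 without LF1h replicate 1 and 2. Signals below 6 limit the folds of low genes.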

Other observations

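Several lists not described above gave 1 or 2 calls. In triglyceride and chylomicron assembly, 1 of 28 measured genes rose, the acyl-CoA synthetase Acsl3 (0.40 ± 0.09), and 1 fell, the phosphatidate phosphatase Lpin2 (-0.60 ± 0.09), with a median of 0.06. Of 12 measured genes of bicarbonate and ion transport 2 fell: Guca2a, the peptide guanylin that drives fluid secretion, was at 8.93 and 9.11 at 3 h, against 9.42 and 9.42 at 1 h (log2 fold change -0.40 ± 0.09 (SE), adjusted p = 0.032), and the chloride channel Cftr at 6.81 and 6.88 at 3 h, against 7.29 and 7.28 at 1 h (log2 fold change -0.44 ± 0.11 (SE), adjusted p = 0.048). That count was 0 when any 1 of the 4 arrays was left out. Ifit3 alone of 10 interferon-stimulated genes rose (0.38 ± 0.08), and Insr alone of 18 insulin signalling genes fell. Acsl3, Ifit3 and Insr did not pass either when any 1 array was left out, whereas Lpin2 passed in all 4 fits. None of the 3 measured erythrocyte markers passed limma's test, and 0 did at an unadjusted p under 0.05.

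Among the modulated probe sets with no single gene, the one shared by several trypsinogens (Prss1 and Prss3 among them) was at least 5.85-fold lower at 3 h, and of the 11 with no gene name 8 were lower and 3 higher.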
